A study of Mus musculus with 18 samples.

Results

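The contacts of the immunoglobulin heavy chain intronic enhancer were compared between B cells cultured for 2 days with bacterial lipopolysaccharide (LPS) and B cells cultured for 2 days with LPS and interleukin 4 (LPS+IL4). The comparison used all day 2 libraries of the series, 6 LPS and 6 LPS+IL4 out of 18 libraries, with 3 libraries for each stimulus in each genotype. The genotypes were wild type (WT) and Med1 mutant, and every library came from mouse splenic CD43-negative B cells fixed in 2% formaldehyde. Med1 is a subunit of Mediator, the complex that links enhancer-bound factors to RNA polymerase II. The labels name neither the Med1 allele nor a Cre line, and they do not say whether replicates are separate animals, so p-values measure the spread between these libraries, which may be technical. The remaining 6 libraries, from resting cells of both genotypes, served as a description of the state without stimulus. No B cell marker could be checked, since 4C measures ligation to the bait and not expression. Resting and LPS+IL4 libraries with the genotype label WT carry the title WTKO, and they were taken as WT. The growth text of WT LPS+IL4 replicate 2 names aCD40 and IL4 in place of LPS and IL4.

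Class switch recombination joins a donor switch region before Ighm to an acceptor switch region before another constant gene, so that a B cell keeps its antigen specificity and changes its isotype. The acceptor is chosen by transcription through its switch region, which depends on the stimulus. LPS alone is known to direct mouse B cells to Ighg3 and Ighg2b, and LPS with IL4 to Ighg1 and Ighe. The donor region lies next to the enhancer Eμ, and the 3' regulatory region (3'RR), a group of enhancers beyond Igha, is known to be needed for germline transcription of most acceptor genes and to contact Eμ. In 4C-seq, inverse PCR from a bait amplifies whatever was ligated to it in fixed nuclei. The comparison asks whether the contacts of Eμ with the acceptor genes and with the rest of chromosome 12 differed between both stimuli.

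The bait lay in Eμ at chr12:113426025-113426048 (mm10), between the JH segments and Ighm. It was read with an inverse pair of primers, which are shown because they fix the viewpoint from which every value below is seen, and both are written 5′ to 3′.
bait primer 1: tctgtcctaaaggctctgaga
bait primer 2: gaacacagaagtatgtgtatgga
The primers are 21 and 23 bases long, and neither holds the letters GATC or GTAC that the enzymes DpnII and Csp6I cut.

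The unit of measurement was the covered fragment end, an interval of 24 bp next to a restriction site that a library lists. The LPS files list covered ends without a value, so the read counts of the LPS+IL4 files were reduced to present or absent. An element is a region of the locus or of chromosome 12, and its share is its number of covered ends per 100 covered ends of chromosome 12 that lie over 5 kb from the bait. Its covered part is the percentage of its ends, out of those listed by any of the 18 libraries, that a library lists. Stimulus, deposit and aligner (Bowtie for LPS+IL4, Bowtie2 for LPS, per the submitters' processing notes) coincide in these libraries and cannot be told apart in any result below.

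The mean number of covered chromosome 12 ends was higher with LPS+IL4 than with LPS, with ranges that overlapped and an adjusted p that did not fall under 0.05. The LPS libraries listed 6661 to 10406 ends of chromosome 12 outside the bait neighbourhood and the LPS+IL4 libraries 8450 to 15660, with means of 8464.5 and 11435.5 (exact permutation within genotype, two-sided p = 0.02, adjusted over 5 library measures 0.05, smallest possible p 0.005). The part of those ends within 1 Mb of the bait averaged 27.1% with LPS+IL4 against 29.6% with LPS (exact permutation p = 0.03, adjusted 0.05). The number of reads is known for LPS+IL4 only, at 2717529 to 21074434 per library. The deepest, Med1 mutant LPS+IL4 replicate 2, also listed the most ends. By construction, the share of a region that is nearly fully covered falls when the rest of the chromosome gains ends. Elements and windows were therefore also tested with the LPS+IL4 reads thinned, in expectation, to the mean LPS coverage of chromosome 12 in the same genotype. This kept 0.951% to 50.1% of the reads of a library. Thinned values are expected numbers without sampling noise, with the same chromosome 12 total in each LPS+IL4 library of a genotype. The LPS libraries kept their spread, so SDs of thinned values, and SEs and p-values from them, may be too small. The bins of 1 Mb and the single ends were not thinned. A second property of the LPS+IL4 set touched the constant region, at 86 ends picked by their reads in the resting and LPS+IL4 libraries. Each had 50 or more reads in at least 5 of those from WT replicate 3 and Med1 mutant replicates 2 and 3. It had under 50 reads in each of the others. The 86 ends lay within chr12:113150941-115651498. Of the LPS+IL4 libraries, WT replicate 3 and Med1 mutant replicates 2 and 3 listed them almost in full (85 or 86). The other LPS+IL4 libraries listed 31 to 33, and this split was largely fixed by the choice. The LPS libraries listed 57 to 80 of these 86 ends. The ends lay in the 3'RR (16), the J/D region (16), Ighg2c (6), Ighg1 (5) and elsewhere.

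The units of the constant genes, each a gene with up to 10 kb upstream, made up a smaller share of covered ends with LPS+IL4 at 7 of 8 genes. The upstream stretch holds the switch region of an acceptor gene. The Ighm unit kept ends over its gene only, since its upstream stretch lay in the bait neighbourhood. The Ighd unit had 4 upstream ends. The share of Ighg1, the main acceptor under IL4, did not pass the test, and its covered part was higher in each LPS+IL4 library than in each LPS library of the same genotype. Igha, Ighg2c and the 3'RR had the strongest falls of share. At matched coverage none of these falls passed the test.

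The Ighg1 unit (chr12:113326541-113340523, 95 ends) lies 85.5 kb from the bait. LPS libraries covered 72.6%, 67.4% and 67.4% of its ends in WT, and 64.2%, 61.1% and 57.9% in the mutant. LPS+IL4 libraries covered 78.9%, 75.8% and 89.5% in WT, and 72.6%, 88.4% and 83.2% in the mutant. Within each genotype every LPS+IL4 library lay above every LPS library. The means were 81.4% ± 7.17 (SD, n = 3) against 69.1% ± 3.04 in WT, and 81.4% ± 8.04 against 61.1% ± 3.16 in the mutant. Resting cells covered 68.1% ± 7.47 in WT and 66.7% ± 0.608 in the mutant, close to the LPS levels of WT and above those of the mutant. At matched coverage the LPS+IL4 means were 76.3% ± 8.53 in WT, where the libraries then overlapped those of LPS, and 71.2% ± 1.40 in the mutant, where they did not. Thinning set each mutant LPS+IL4 library to an expected 7688 chromosome 12 ends, while the mutant LPS libraries kept 6661 to 8987. The small SD and the lack of overlap in the mutant may come in part from this. The higher covered part held over the gene itself and over its upstream stretch. Over the gene (23 ends) it was 76.8% against 60.9% in WT and 81.2% against 55.1% in the mutant. Over the 10 kb upstream (72 ends), which hold the switch region, it was 82.9% against 71.8% in WT and 81.5% against 63.0% in the mutant.

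As a share of chromosome 12, a measure that itself falls at well-covered regions when coverage rises, Ighg1 did not pass the test. It held 0.723% ± 0.116 of covered ends in WT LPS and 0.697% ± 0.0709 in WT LPS+IL4, and 0.765% ± 0.103 against 0.687% ± 0.141 in the mutant (SD, n = 3 each). The groups overlapped in both genotypes. The log2 difference of the share, LPS+IL4 minus LPS averaged over the genotypes, was -0.11 ± 0.12 (SE, limma, adjusted p = 0.436 over 27 elements). With thinned reads it was 0.17 ± 0.089 (limma, adjusted p = 0.227). The direction of Ighg1 thus depended on the scaling: it was also above 0 with TMM factors, at 0.11, and over ends listed in both sets, at 0.30 (limma, adjusted p = 0.0515). Ends listed in both sets are, here and below, those listed by an LPS library and by a resting or LPS+IL4 library. The place of Ighg1 among the 8 units depended less on the scaling. In 29 of 29 settings the genotype-averaged estimate of Ighg1 was the highest of the 8 units, as it was in 30 of 30 settings in WT and 29 of 30 in the mutant, where Ighm stood higher in the log odds form. The settings refit the same libraries and are not independent, and the difference of Ighg1 from the other units was not tested.

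Among the constant gene units Ighg1 also had the most single ends listed mainly by LPS+IL4 libraries. Of its 95 ends, 8 were listed by at least 4 more LPS+IL4 than LPS libraries and 0 by at least 4 more LPS libraries. Over chromosome 12 these counts were 838 (1.47% of 56859 ends) and 340 (0.598%), so the 8.42% of Ighg1 stands against 1.47% for the chromosome and 7.77% for the middle VH segments. It was 6.48% in the 3' flank up to 500 kb from the bait, 5.51% in the proximal VH segments and 5.26% at Ighd. In the 3'RR it was 0.602%. The part of the chromosome over 10 Mb from the bait had 0.493%. Of the 8 ends, 5 lay upstream of the gene, 4.17 to 7.99 kb from its start. The end at chr12:113334689-113334712 was listed by 0 LPS, 5 LPS+IL4 and 3 resting libraries, with a median of 372.5 reads in the LPS+IL4 libraries. The end at chr12:113338488-113338511 was listed by 1 LPS, 6 LPS+IL4 and 5 resting libraries, with a median of 838 reads. All 8 ends were also listed by 2 to 5 of the resting libraries, which belong to the same deposit as the LPS+IL4 libraries.

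The Ighe unit (chr12:113269263-113283248, 76 ends), is that of the other acceptor under IL4, and its difference from Ighg1 was not tested. LPS libraries covered 75.0% to 77.6% of its ends in WT and 61.8% to 78.9% in the mutant, and LPS+IL4 libraries 73.7% to 85.5% and 67.1% to 90.8%. The groups overlapped in both genotypes. Its share was lower with LPS+IL4 by 0.31 ± 0.10 on the log2 scale (limma, adjusted p = 0.02), and by 0.066 ± 0.075 with thinned reads (limma, adjusted p = 0.462). Of its ends, 2 were listed by at least 4 more LPS+IL4 libraries and 1 by at least 4 more LPS libraries.

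The acceptors under LPS alone were Ighg3 and Ighg2b. The Ighg2b unit (chr12:113304314-113317933, 49 ends) was covered to 91.8%, 77.6% and 85.7% in WT LPS and to 85.7%, 87.8% and 89.8% in WT LPS+IL4. In the mutant the values were 77.6%, 81.6% and 69.4% with LPS and 79.6%, 87.8% and 77.6% with LPS+IL4. The libraries of both stimuli overlapped, and both activated WT groups lay above the resting mean of 75.5% ± 3.53. As a share of chromosome 12, Ighg2b fell from 0.456% ± 0.0493 to 0.388% ± 0.0233 in WT and from 0.489% ± 0.0383 to 0.359% ± 0.0949 in the mutant. The log2 difference was -0.36 ± 0.11 (limma, adjusted p = 0.0179), and -0.12 ± 0.074 with thinned reads (limma, adjusted p = 0.265). Ighg3 (chr12:113357442-113371232, 62 ends) was covered to 84.4% ± 2.46 and 88.7% ± 1.61 in WT with LPS and LPS+IL4, and to 79.0% ± 3.23 and 85.5% ± 7.39 in the mutant. Its share fell by 0.34 ± 0.12 on the log2 scale (limma, adjusted p = 0.0249), with -0.09 ± 0.087 after thinning (limma, adjusted p = 0.375).

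**Figure D1:**
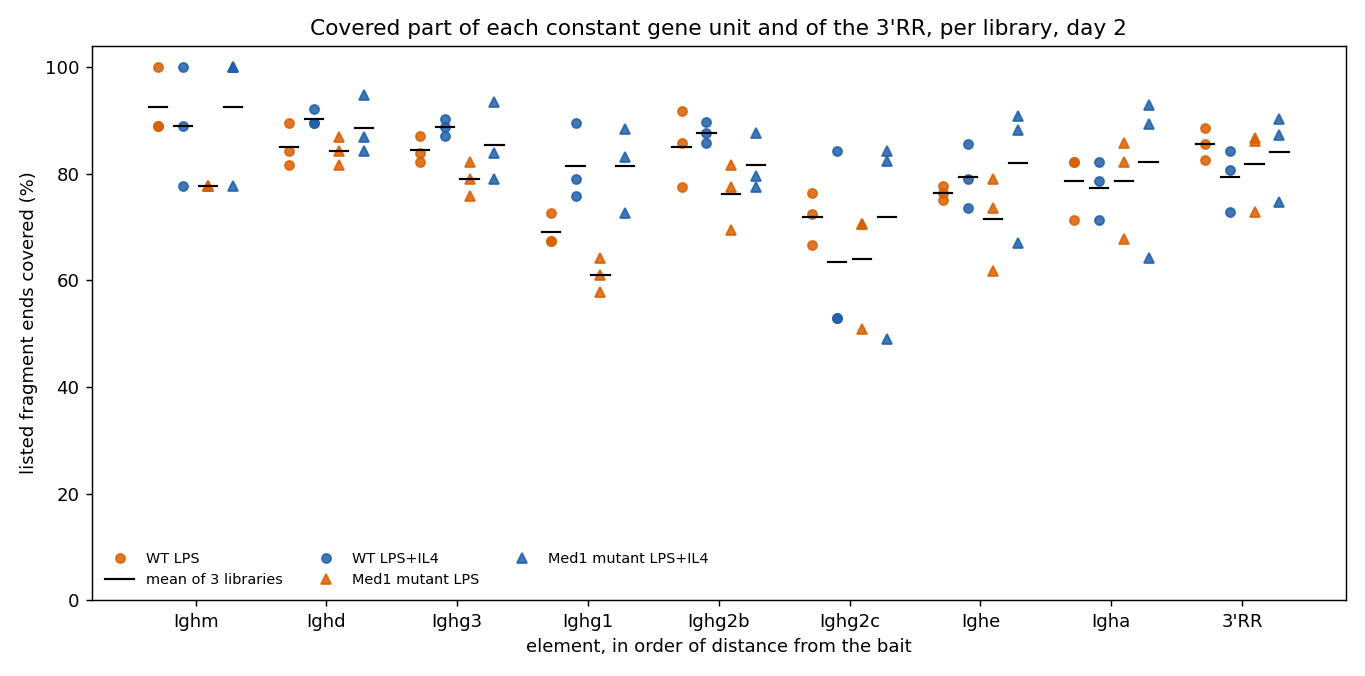
Covered part (% of the listed ends, vertical axis) of the 8 constant gene units and the 3'RR (horizontal axis) in each day 2 library; circles are WT, triangles Med1 mutant, orange LPS, blue LPS+IL4, and black bars the means of 3 libraries. At Ighg1 each LPS+IL4 library lies above the LPS libraries of its genotype, while at the other units the stimuli overlap in at least 1 genotype.

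The balance between the acceptors of both stimuli was measured within each library as the log2 ratio of covered ends in Ighg3 and Ighg2b over those in Ighg1 and Ighe, which needs no library size. The WT LPS libraries had -0.389, -0.443 and -0.358, and the WT LPS+IL4 libraries -0.492, -0.385 and -0.585. The mutant LPS libraries had -0.461, -0.407 and -0.263, and the mutant LPS+IL4 libraries -0.447, -0.599 and -0.698. In each genotype 1 LPS+IL4 library lay inside the LPS range and 2 below it. The ratio was lower with LPS+IL4 by 0.148 on average, 0.0909 in WT and 0.205 in the mutant (exact permutation within genotype, two-sided p = 0.035). With thinned reads the difference was -0.170 (exact permutation p = 0.015), and over ends listed in both sets -0.106 (exact permutation p = 0.09). Leaving out single libraries moved the difference between -0.181 and -0.119. The exact permutation p was at or above the threshold when any of 8 libraries was left out: among LPS+IL4, Med1 mutant replicate 2 (0.055) or 3 (0.065) and WT replicate 1 (0.055) or 3 (0.07), and among LPS, Med1 mutant replicate 2 (0.06) or 3 (0.07) and WT replicate 1 (0.05) or 3 (0.06). Resting cells, which share the deposit of the LPS+IL4 libraries, had -0.346 ± 0.128 in WT and -0.403 ± 0.0447 in the mutant, near the LPS values of -0.397 ± 0.0433 and -0.377 ± 0.102 and above the LPS+IL4 values of -0.487 ± 0.0999 and -0.582 ± 0.126. The ratio is not independent of the Ighg1 result. Averaged over the genotypes, the log2 differences of share as deposited were -0.11 for Ighg1, -0.31 for Ighe, -0.34 for Ighg3 and -0.36 for Ighg2b. Ighe thus lay near the acceptors under LPS alone and not near Ighg1.

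**Figure D2:**
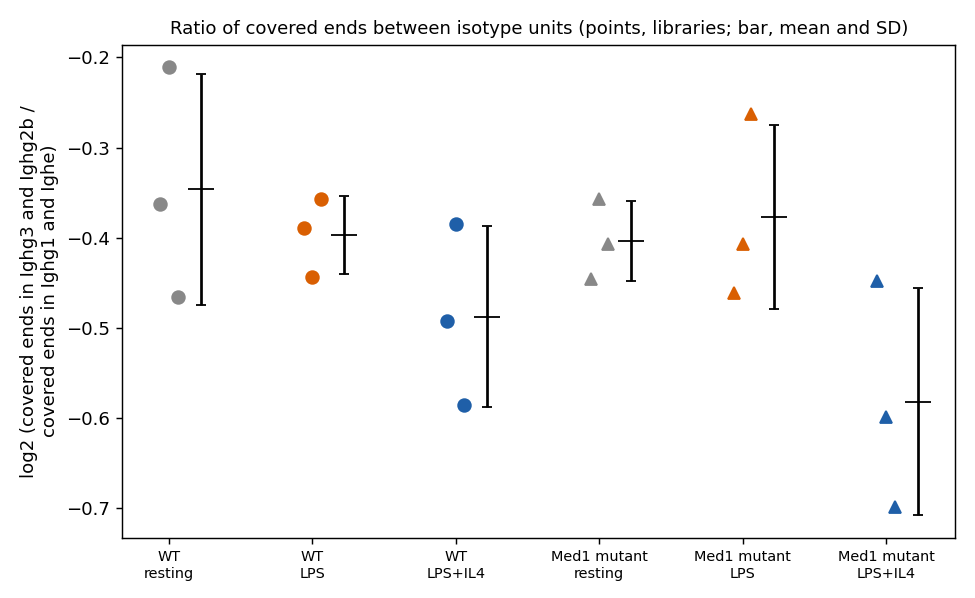
log2 ratio of covered ends in Ighg3 and Ighg2b over those in Ighg1 and Ighe (vertical axis) for each group (horizontal axis); points are single libraries, and the bar beside them is the mean with the SD of 3 libraries. The LPS+IL4 libraries reach the lowest values, -0.698 in the mutant and -0.585 in WT, and overlap the LPS libraries in each genotype.

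Over all elements the test called 18 of 27 lower with LPS+IL4 (66.7% of elements tested) and 1 higher (3.70%) when the genotypes were averaged (limma, Benjamini-Hochberg adjusted p under 0.05). The 18 were 7 of the 8 constant gene units, the interval between Ighd and Ighg3, the 3'RR with all 7 of its pieces of 5 kb, the interval with the 3' CTCF sites, and the J/D region. The constant genes and the 3'RR fell together, with log2 differences from -0.31 to -0.52 apart from Ighg1. The median over all 27 elements was -0.35 and that of the 8 constant gene units also -0.35. The 27 include these 8 units and the 3'RR with its 7 pieces, so the medians are not independent. With TMM factors, which moved the median of all elements to -0.13, 8 elements were lower and 4 higher. Those lower included 6 of the 7 pieces of the 3'RR and 1 of the 8 constant gene units. With thinned reads 0 were lower and 1 was higher, with 5 elements at an unadjusted p under 0.05. With library size from all chromosomes limma called 0 elements, with 8 at an unadjusted p under 0.05. With edgeR on covered ends 15 were lower and 1 higher. When replicate 2 of WT LPS+IL4 was left out because of the aCD40 in its label, 16 were lower and 1 higher, and the ratio of covered ends was -0.173 (exact permutation p = 0.015).

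Leaving out each of 12 libraries in turn, the calls of Ighg2b, Ighg2c, Igha, the 3'RR and its pieces, the CTCF interval and the centromeric stretch were kept each time. Those of Ighm, Ighd, the interval between Ighd and Ighg3, Ighg3 and the J/D region were lost in 5, 6, 5, 4 and 8 of the 12 cases, with Med1 mutant LPS+IL4 replicate 2, Med1 mutant LPS replicate 3 and WT LPS replicate 2 among them for each (limma, adjusted p up to 0.0763, 0.0763, 0.0695, 0.0735 and 0.101). The call of Ighe was lost without WT LPS replicate 2 (limma, adjusted p = 0.053).

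The call counts also rested on genotype. In the Med1 mutant 16 elements were lower (59.3%) and 1 higher (3.70%), and in WT limma called 0 of 27 (0%), with 9 at an unadjusted p under 0.05 and 0 called by edgeR. The interaction of stimulus and genotype was called at 0 of 27 elements (0%), with 0 at an unadjusted p under 0.05 and 0 called by edgeR, so no difference between the genotypes was shown. As deposited the genotypes ran alike: 26 of 27 elements had the same sign in both, with Pearson's r 0.898 and Spearman's rho 0.796 across elements, some of which hold others. With thinned reads the likeness was lower, with 23 of 27 elements of the same sign, r 0.727 and rho 0.590. Over windows of 10 kb as deposited, 218 of 302 had the same sign, with r 0.591. In the mutant the calls went to 0 without LPS+IL4 replicate 2, the deepest library, and also without LPS replicate 1 or 3. They fell to 11 without LPS+IL4 replicate 3. In WT 2 elements were called without Med1 mutant LPS+IL4 replicate 2, and 1 without WT LPS+IL4 replicate 3.

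**Figure D3:**
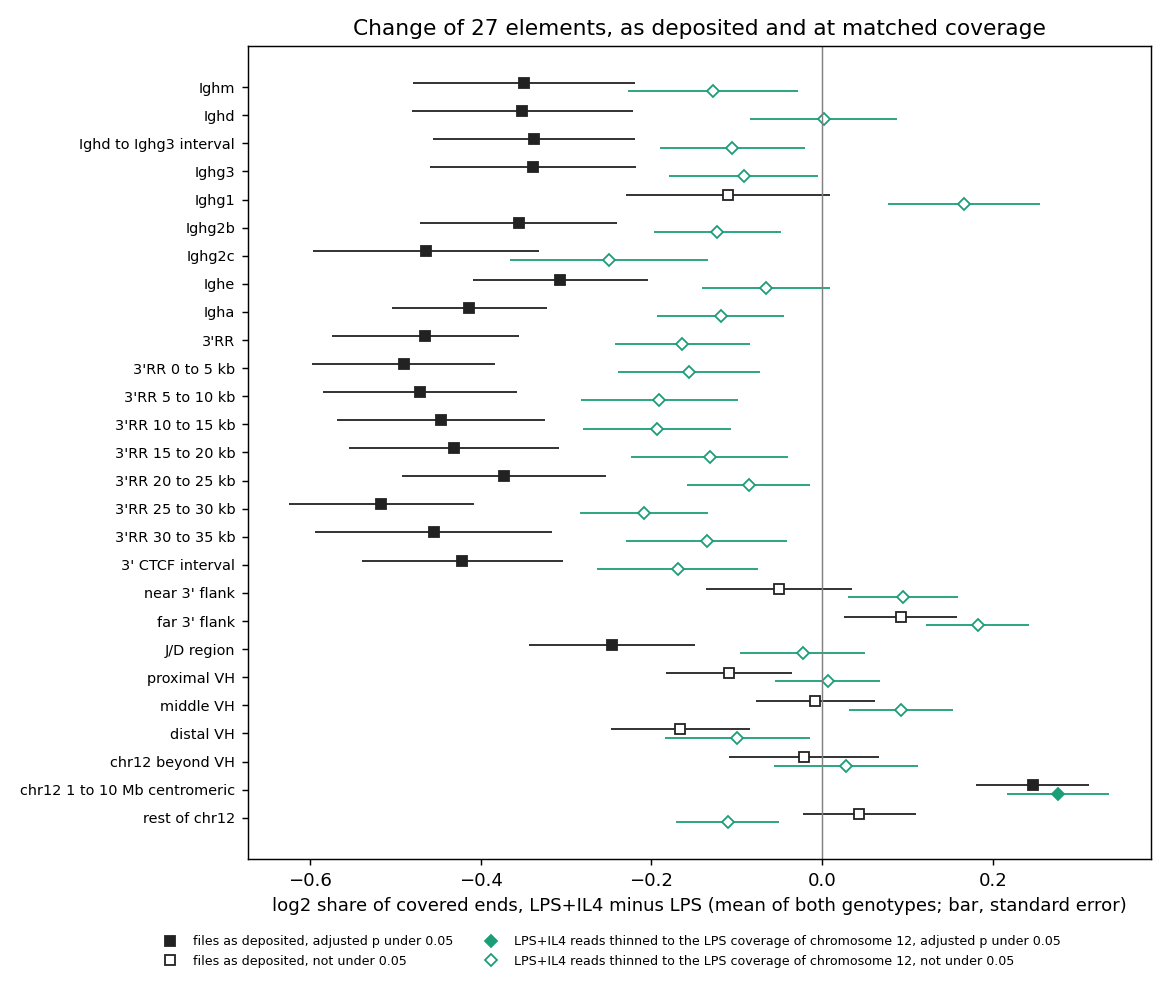
log2 difference in the share of covered ends, LPS+IL4 minus LPS averaged over the genotypes (horizontal axis, with SE), for 27 elements (vertical axis); black squares are the files as deposited, green diamonds the same with LPS+IL4 reads thinned to the LPS coverage, and filled symbols have an adjusted p under 0.05. As deposited 18 elements lie left of 0 and are called, and after thinning 1 element, the stretch 1 to 10 Mb towards the centromere, is called.

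The 3'RR (chr12:113221204-113256203, placed as the 35 kb beyond Igha, 166 ends) carries the enhancers known to act on the acceptor genes. WT LPS libraries covered 85.5%, 82.5% and 88.6% of its ends, and WT LPS+IL4 libraries 80.7%, 72.9% and 84.3%. Mutant LPS libraries covered 86.1%, 86.7% and 72.9%, and mutant LPS+IL4 libraries 74.7%, 90.4% and 87.3%. The covered part in WT was thus 79.3% ± 5.85 with LPS+IL4 against 85.5% ± 3.01 with LPS, and the libraries overlapped. In the mutant the means were 84.1% ± 8.31 and 81.9% ± 7.83. The resting means, at 75.1% ± 6.03 in WT and 74.5% ± 7.29 in the mutant, were below those of both stimuli. As a share the 3'RR fell from 1.56% ± 0.217 to 1.19% ± 0.0835 in WT and from 1.78% ± 0.166 to 1.24% ± 0.259 in the mutant. The log2 difference was -0.46 ± 0.11 (limma, adjusted p = 0.00629), and -0.16 ± 0.079 with thinned reads (limma, adjusted p = 0.211). Of its 166 ends 16 belong to the 86 listed unevenly among the LPS+IL4 libraries, and 9 of those lie in the 5 kb next to Igha.

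Among the 7 pieces of the 3'RR the log2 differences ran from -0.37 to -0.52, and each was called. The shares of all LPS+IL4 libraries lay below those of all LPS libraries in the first 5 kb beyond Igha (0.345% to 0.509% against 0.519% to 0.688%) and at 25 to 30 kb (0.0894% to 0.130% against 0.135% to 0.189%). In the piece at 25 to 30 kb the LPS libraries covered 12 to 14 of 14 ends and the LPS+IL4 libraries 11 to 14, so the numbers of covered ends themselves overlapped. With thinned reads the pieces ran from -0.09 to -0.21 and none was called, with the lowest adjusted p at 0.12 (limma).

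Ighg2c and Igha had the lowest share differences of the constant genes. Ighg2c (chr12:113287389-113298932, 51 ends) had a log2 difference of -0.46 ± 0.13 (limma, adjusted p = 0.0105). WT LPS libraries covered 76.5%, 66.7% and 72.5% of its ends and WT LPS+IL4 libraries 52.9%, 52.9% and 84.3%, and in the mutant the values were 70.6%, 70.6% and 51.0% against 49.0%, 84.3% and 82.4%. The LPS+IL4 libraries fell apart as 3 near 50% and 3 above 80%. This was the same split of libraries by which the 86 ends, 6 of them in this unit, had been picked. With only the LPS+IL4 libraries that list these ends in full, a choice made after seeing the data, the difference was smaller, at -0.22. Libraries picked for covering these ends, 6 of them in this unit, favour a smaller fall by construction. That choice left replicate 3 alone in WT LPS+IL4. The difference went from -0.49 to -0.029 in WT and from -0.44 to -0.41 in the mutant. With the 86 ends left out and all 12 libraries kept, limma still called 7 of the 8 constant gene units lower, Ighg2c among them. Igha (chr12:113256204-113269262, 28 ends) had a log2 difference of -0.41 ± 0.091 (limma, adjusted p = 0.0051). The 7 ends over the Igha gene were covered in every library. The 21 upstream ends were covered to 71.4% with LPS and 69.8% with LPS+IL4 in WT, and to 71.4% and 76.2% in the mutant. In the mutant the share of Igha was thus lower although its mean covered part was not. With thinned reads the differences were -0.25 ± 0.12 for Ighg2c (limma, adjusted p = 0.211) and -0.12 ± 0.075 for Igha (limma, adjusted p = 0.272).

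Ighm and Ighd, the genes expressed before switching, lie nearest to the bait. Their units were covered to at least 77.8% and 81.6% in each day 2 library. Ighm, with 9 ends over 5 kb from the bait, had a log2 difference of -0.35 ± 0.13 and Ighd, with 38 ends, of -0.35 ± 0.13 (limma, adjusted p = 0.028 for both). After thinning the values were -0.13 ± 0.10 and 0.0018 ± 0.086 (limma, adjusted p = 0.328 and 0.983).

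On the variable gene side the 3 VH segments did not pass the test as deposited. The proximal, middle and distal segments had log2 differences of -0.11 ± 0.073, -0.008 ± 0.070 and -0.17 ± 0.081 (limma, adjusted p = 0.206, 0.91 and 0.0827). With thinned reads they had 0.0062, 0.093 and -0.10 (limma, adjusted p = 0.955, 0.272 and 0.332). Other settings made calls: the middle segments were higher with TMM factors (0.21, limma, adjusted p = 0.0153) and over ends listed in both sets (0.23, limma, adjusted p = 0.0288), and edgeR called the distal segments lower (-0.16, adjusted p = 0.0355). In the mutant alone the distal segment was lower by 0.30 ± 0.11 (limma, adjusted p = 0.0353). That call was lost without any of 8 of the 12 libraries (limma, adjusted p = 0.0506 to 0.125), and with thinned reads, where the difference was -0.22 (limma, adjusted p = 0.562). With TMM factors its sign turned. The J/D region, the 100 kb that hold the D and JH segments, was lower by 0.25 ± 0.098 (limma, adjusted p = 0.0364), and by 0.023 ± 0.073 after thinning (limma, adjusted p = 0.819).

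In windows of 10 kb from 1 Mb on the constant side to 3 Mb on the VH side, 7 of 302 were lower with LPS+IL4 (2.32%) and 1 was higher (0.331%). In the mutant 2 were lower (0.662%) and 0 higher (0%). In WT 0 were called (0%), with 21 at an unadjusted p under 0.05, and the interaction was called at 0 (0%), with 11 at an unadjusted p under 0.05; edgeR on covered ends called 0 windows in each of these. Of the 8 windows called with the genotypes averaged, 7 lay on the VH side and 1 on the constant side, and none lay within a constant gene unit or the 3'RR. The calls were not stable against the choice of fit: edgeR called 0 of the 302, with 56 at an unadjusted p under 0.05. The count was 1 without WT LPS replicate 2, 2 and 3 without WT LPS+IL4 replicates 1 and 2, 4 without WT LPS+IL4 replicate 3, WT LPS replicate 3 or Med1 mutant LPS+IL4 replicate 2, 13 without Med1 mutant LPS replicate 3 or WT LPS replicate 1, and 22 without Med1 mutant LPS+IL4 replicate 3. In the mutant it reached 18 without LPS+IL4 replicate 3.

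The window with higher share held Ighv6-7, a VH gene of the middle segments (chr12:114446025-114456024, 44 ends, 1.02 Mb from the bait). Its LPS libraries listed 16, 9 and 15 ends in WT and 10, 12 and 7 in the mutant, and its LPS+IL4 libraries 26, 25 and 25 and 23, 26 and 23. Every LPS+IL4 library lay above every LPS library, and the resting libraries, with 10 to 15, lay among the LPS libraries. As a share it rose by 0.66 ± 0.15 on the log2 scale (limma, adjusted p = 0.0305), and by 0.82 ± 0.12 with thinned reads (limma, adjusted p = 0.00417). Over ends listed in both sets the estimate was as large, at 0.66 (limma, adjusted p = 0.0518). Leaving out any WT LPS+IL4 library, or WT LPS replicate 2 or 3, ended the call (limma, adjusted p = 0.0513 to 0.1), with estimates of 0.56 to 0.74 over all 12 left-out libraries.

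The window on the constant side (chr12:113196025-113206024, 16 ends) began 230 kb from the bait, at the far end of the interval with the 3' CTCF sites, which are known as the boundary of the locus. LPS libraries listed 11, 13 and 13 ends in WT and 9, 11 and 10 in the mutant, and LPS+IL4 libraries 7, 9 and 11 and 6, 15 and 9. The shares did not overlap, at 0.113% to 0.172% with LPS and 0.0601% to 0.101% with LPS+IL4. The share fell by 0.68 ± 0.16 on the log2 scale (limma, adjusted p = 0.0305), and by 0.66 ± 0.15 with thinned reads (limma, adjusted p = 0.0347). Its call was lost without LPS+IL4 replicate 2 of the mutant, replicate 1 or 2 of WT, or WT LPS replicate 2 or 3 (limma, adjusted p = 0.052 to 0.103). The whole interval with the CTCF sites (chr12:113196204-113221203, 67 ends) was lower by 0.42 ± 0.12 as deposited (limma, adjusted p = 0.0105) and by 0.17 ± 0.094 after thinning (limma, adjusted p = 0.227).

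A further window without overlap held Ighv5-12-4 in the proximal VH segments (chr12:113756025-113766024, 26 ends). It had 10, 10 and 12 covered ends in WT LPS, 9, 15 and 7 in mutant LPS, 9, 7 and 9 in WT LPS+IL4 and 6, 13 and 11 in mutant LPS+IL4. Its share fell by 0.61 ± 0.15 on the log2 scale (limma, adjusted p = 0.0369) and by 0.63 ± 0.14 after thinning (limma, adjusted p = 0.0347). Its call was lost without any of 8 of the 12 libraries (limma, adjusted p = 0.0513 to 0.1). The window with Ighv1-82 in the distal segments (chr12:115946025-115956024, 14 ends) held 6 to 9 covered ends in the LPS libraries and 1 to 7 in the LPS+IL4 libraries, and its share fell by 1.01 ± 0.17 (limma, adjusted p = 0.00751), and by 1.58 ± 0.25 in the mutant (limma, adjusted p = 0.00235). After thinning the averaged value was -0.79 ± 0.21 (limma, adjusted p = 0.0454), and the averaged call was kept without each of the 12 libraries. The other window named in the mutant (chr12:115026025-115036024, 26 ends) held 4 to 7 covered ends with LPS and 0 to 6 with LPS+IL4 there, and its share fell by 1.82 ± 0.37 (limma, adjusted p = 0.023). After thinning it had too few covered ends to be tested.

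With thinned reads 14 of 283 windows were called, 9 higher and 5 lower. The thinned values hold no sampling noise, so the p-values of these windows may be too small and their number too high. The 5 lower windows included those at the CTCF interval, Ighv5-12-4 and Ighv1-82. The higher ones included windows at Ighv6-7, at Ighv12-2 (0.96 ± 0.24) and at Ighv15-1 (0.69 ± 0.16) in the middle VH segments, and on the other side at Brf1 and Btbd6 (0.56 ± 0.14) and at Gpr132 (0.52 ± 0.13) in the 3' flank (limma, adjusted p = 0.0347 to 0.0454 for those not given above). None lay in a constant gene unit or the 3'RR.

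**Figure D4:**
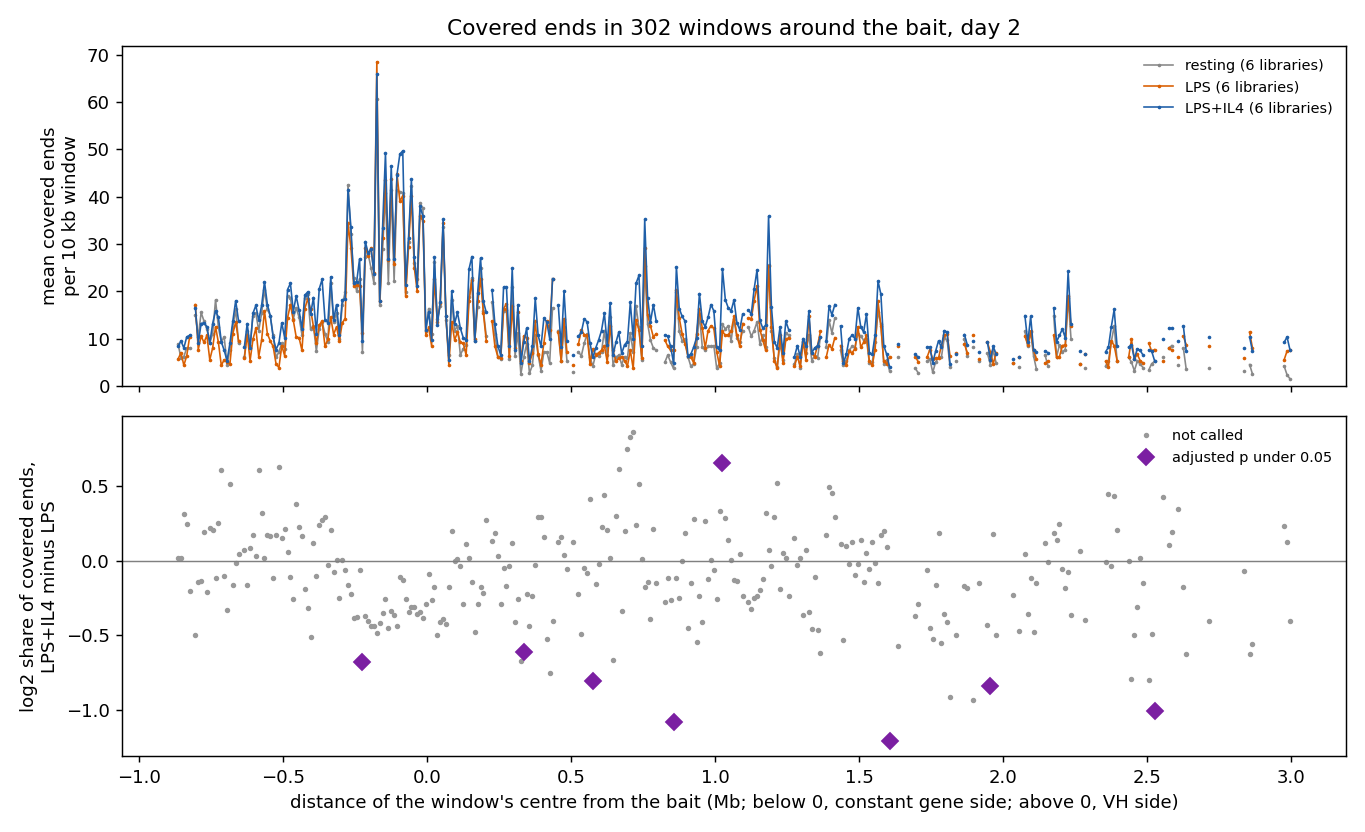
Mean covered ends per 10 kb window in resting, LPS and LPS+IL4 libraries (upper panel) and the log2 difference of the share, LPS+IL4 minus LPS (lower panel), against the distance from the bait in Mb. Differences run below 0 over the constant region left of the bait, and the 8 called windows (diamonds) comprise 7 below 0 and 1 above 0.

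The stretch of chromosome 12 from 1 to 10 Mb on the centromeric side was the 1 element with a higher share under LPS+IL4. The WT LPS libraries had 11.3%, 9.85% and 11.2% of covered ends there and the WT LPS+IL4 libraries 12.2%, 12.7% and 12.3%. The mutant values were 9.78%, 10.6% and 10.4% with LPS and 12.7%, 12.3% and 12.6% with LPS+IL4. All 6 LPS+IL4 libraries lay above all 6 LPS libraries, while the resting means, 8.32% ± 0.664 in WT and 9.56% ± 0.586 in the mutant, were below the LPS means. The highest resting library of the mutant, at 10.2%, lay among the LPS libraries. The log2 difference was 0.25 ± 0.066 (limma, adjusted p = 0.0105), and 0.28 ± 0.060 with thinned reads (limma, adjusted p = 0.00823). Over ends listed in both sets of libraries it turned to -0.14 ± 0.072 (limma, adjusted p = 0.254). This setting keeps ends listed by an LPS library and by a resting or LPS+IL4 library. It leaves out most chromosome 12 ends, since LPS libraries listed 22953 of 56859. Without the resting libraries, 55.4% of the 22953 LPS ends were also listed by an LPS+IL4 library. Of the 36666 ends of the LPS+IL4 libraries 34.7% were also listed by an LPS library.

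In bins of 1 Mb the gain was not even. The libraries did not overlap in the bins 2 to 3 Mb (2.21% to 2.81% with LPS, 3.02% to 3.26% with LPS+IL4), 4 to 5 Mb (1.17% to 1.49% against 1.75% to 1.92%) and 8 to 9 Mb from the bait (0.594% to 0.812% against 0.842% to 0.982%). The bin 6 to 7 Mb away went the other way, with 0.304% to 0.378% under LPS and 0.170% to 0.284% under LPS+IL4. On the far side of the VH segments both stimuli gave like shares, 6.72% ± 0.362 with LPS and 6.66% ± 0.262 with LPS+IL4 in WT, and 5.95% ± 0.310 and 5.88% ± 1.04 in the mutant. Resting cells had 3.08% ± 0.270 and 2.88% ± 0.334 there. The log2 difference between the stimuli was -0.021 ± 0.088 (limma, adjusted p = 0.842), and 0.028 ± 0.084 with thinned reads (limma, adjusted p = 0.819).

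**Figure D5:**
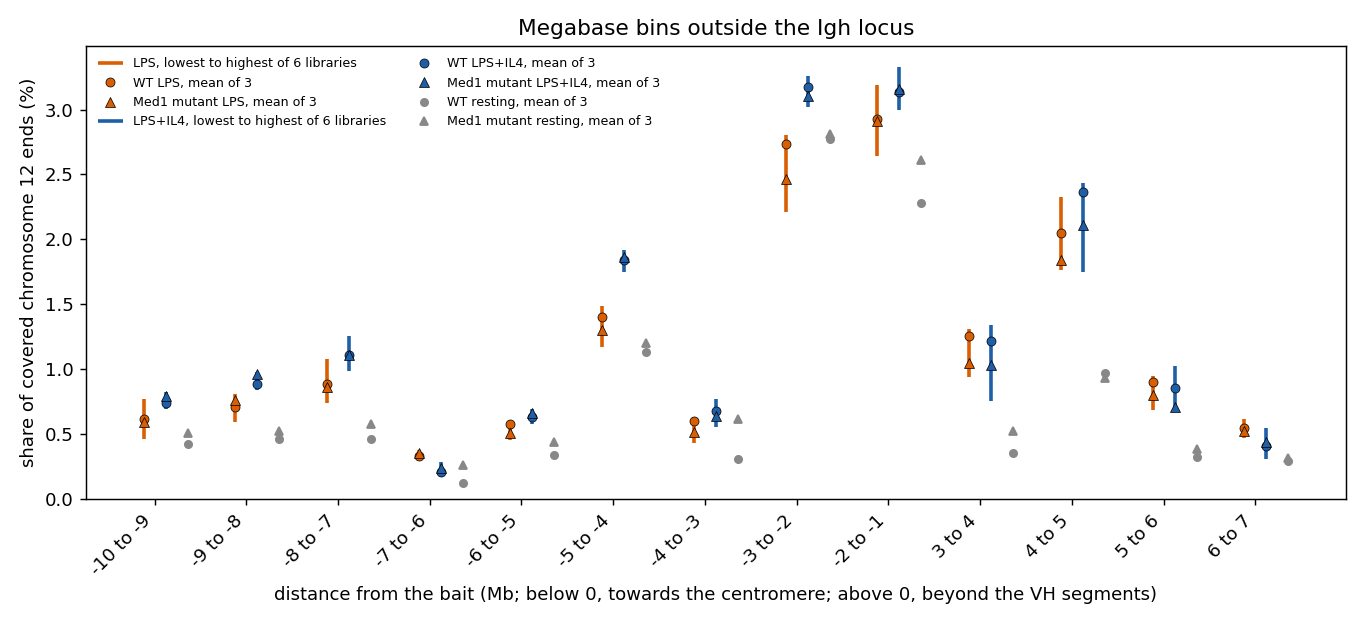
Share of covered chromosome 12 ends (%, vertical axis) in bins of 1 Mb outside the Igh locus against the distance from the bait (horizontal axis); lines span the lowest to the highest of 6 libraries, symbols are means of 3, and grey symbols are resting cells. Blue LPS+IL4 ranges lie clear above orange LPS ranges at 2 to 3, 4 to 5 and 8 to 9 Mb on the centromeric side and clear below at 6 to 7 Mb.

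Single ends rarely separated the stimuli in full. On chromosome 12, 56 ends were listed in all 6 LPS+IL4 and no LPS library (0.0985% of 56859) and 18 in all 6 LPS and no LPS+IL4 library (0.0317%), while 1064 were listed in all 12. Of the 56 ends 22 lay in the middle VH segments and 7 in the distal ones. The nearest was chr12:113330485-113330508, 95.5 kb from the bait in the Ighg1 gene, which 5 of 6 resting libraries also listed, with 13 to 183 reads in the LPS+IL4 libraries. Only 1 of the 56 was listed by no resting library, and 7 were listed by all 6. An example of the latter is chr12:113663085-113663108 in the proximal VH segments, with 668 to 4357 reads in the LPS+IL4 libraries and no listing in any LPS library. Of the 18 ends listed by LPS libraries only 14 were listed by no resting library, and 12 lay over 10 Mb from the bait.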

How the data were processed

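4C-seq files of 12 day 2 libraries were used, with 6 resting libraries for description. The LPS+IL4 and resting files give, per the file headers, a bedGraph track whose values are whole numbers of reads (counts) at intervals of 24 bp, and the deposited LPS files hold coordinates only, so each deposited file was also read as a list of covered ends. Bowtie and Bowtie2 and the mm10 assembly are named in the submitters' processing notes; parameters and filters are not given in the sources used here. The depth of the LPS libraries is unknown. Counts are PCR reads without molecular identifiers.

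The 27 elements, the lists and the windows (named where called with no overlap between groups) were chosen with earlier results of these data known. The 3'RR and CTCF intervals were set by distance from Igha and are approximate; gene positions came from RefSeq (GRCm38, the assembly of mm10). limma 3.58.1 was fitted in R 4.3.3 to log2((covered ends + 1) / covered chromosome 12 ends over 5 kb from the bait), with 4 group means over 12 libraries, two-sided, with Benjamini-Hochberg adjustment over 27 elements and, apart, over 302 windows with a mean of at least 5 covered ends. The fit was tested on simulated windows, drawn as independent binomial counts from the mean LPS shares. They held no spread between libraries beyond coverage and no deposit effect, so they cannot show the rate of false calls here. Thinning used the expected number of ends left when each read is kept with a fixed chance. Library measures and the ratio were tested by exact permutation of stimulus within genotype (400 arrangements). Alternatives were edgeR 4.0.16 (also for TMM factors), log odds with chromosome 12 coverage as covariate, other library sizes, read minimums of 2 and 5, pseudocount 0.5, other window sizes and bait neighbourhoods, left-out ends and libraries, and a replicate block. The use of the LPS+IL4 libraries that list the 86 ends in full, and thinning without Med1 mutant LPS+IL4 replicate 2, were added after seeing the data. Python 3.11.15 with pandas 2.3.3, numpy 2.4.6, scipy 1.17.1 and matplotlib 3.10.9 did the rest.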

Additional observations from a re-analysis of the deposited data

Results flagged for a closer look

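On chromosomes other than 12, which no comparison above used, 240 ends were listed in all 6 LPS libraries and in no LPS+IL4 library, and 206 of these were listed in no resting library either. In the other direction 56 ends were listed in all 6 LPS+IL4 and no LPS library, and 20 of these were listed in all 6 resting libraries. Of the 56 ends 6 lay within 1000 bases below position 10000000 or 100000000, and of the 240 ends 0 did; a part of file sorting in this was not tested. A total of 383109 ends on these chromosomes were listed by at least 1 of the 18 libraries. The result was picked out as a signal in data outside the main measurement. The LPS libraries differ from both other sets in deposit and aligner as well as in stimulus, which cannot be told apart.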

How the results depend on the processing

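Limits: with 3 libraries in a group, constant gene units covered to group means of 61.1% to 92.6%, no reads for LPS, and a deposit that coincides with the stimulus, small differences could not be resolved, and matched coverage could only be reached by thinning. The cause of the changes below was not tested. Of 27 elements with the genotypes averaged (19 called), limma called 0 with library size from all chromosomes, 12 with TMM factors, 0 in the log odds form, 1 each with minimums of 2 and 5 reads, 1 with thinned reads with or without Med1 mutant LPS+IL4 replicate 2, and 3 over ends listed in both sets. Leaving out each library in turn gave 13 to 19. In the mutant (17 called) TMM factors and edgeR gave 9 each, thinned reads 1, and 0 were called with library size from all chromosomes, in the log odds form, with minimums of 2 and 5 reads, over ends in both sets, with thinned reads without Med1 mutant LPS+IL4 replicate 2, and with only the groups compared; leaving out libraries gave 0 to 18. In WT (0 called) TMM factors gave 3, and leaving out libraries 0 to 2. For windows with the genotypes averaged (8 called) the counts were 1 with pseudocount 0.5, 3 with TMM factors, 0 by edgeR, 45 with an eBayes trend, 14 with thinned reads, 0 over ends in both sets, 23 and 13 in windows of 5 and 20 kb, 13 without the filter, and 2 with only the LPS+IL4 libraries that list the 86 ends in full; leaving out libraries gave 1 to 22. In the mutant (2 called) they were 1, 1 and 0 for pseudocount, TMM and edgeR, 4 with library size from all chromosomes, 13 in the log odds form, 19 with the trend, 1 with at least 2 reads, 1 with thinned reads (0 without Med1 mutant LPS+IL4 replicate 2), 0 over ends in both sets, 6 and 12 in windows of 5 and 20 kb and 7 without the filter; leaving out libraries gave 1 to 18. Leaving out libraries gave 0 to 1 window in WT.

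Over ends listed in both sets the genotype-averaged log2 difference reversed for Ighm (0.0985), Ighd (0.0336), the Ighd to Ighg3 interval (0.105), Ighg3 (0.114), Ighg2b (0.104), Ighe (0.118), Igha (0.0366), the 3'RR piece at 20 to 25 kb (0.0332), the 3' CTCF interval (0.00622), the J/D region (0.144) and chr12 1 to 10 Mb centromeric (-0.137), and in the mutant for the Ighd to Ighg3 interval (0.0161), Ighg3 (0.0264), Ighg2b (0.0187), Ighe (0.0769) and chr12 1 to 10 Mb centromeric (-0.0971). In the log odds form it reversed for Ighm (0.158), Ighd (0.177, and 0.00807 in the mutant) and Ighg3 (0.0239), with thinned reads for Ighd (0.00183), and with TMM factors for the distal VH segments in the mutant (0.00428). The ratio of covered ends was -0.106 (exact permutation p = 0.09) over ends in both sets and -0.181 to -0.119 leaving out libraries.

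Same-numbered LPS and LPS+IL4 libraries did not deviate together over windows (correlations -0.142 to 0.116, 1 of 6 over 0.1). Libraries of different numbers had correlations of -0.171 to 0.158, with 2 of 12 over 0.1. Low correlations over sparsely covered windows cannot show whether the numbers pair the libraries, and the main fit used no pairing. With a replicate block limma called 19 elements with the genotypes averaged, 7 in WT and 17 in the mutant, and 4 windows in the mutant; the ratio kept its value of -0.148 with an exact permutation p of 0.125.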

Other observations

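The interval between Ighd and Ighg3, which holds no constant gene, was covered to 76.2% ± 4.31 with LPS and 79.0% ± 1.80 with LPS+IL4 in WT, and to 72.4% ± 4.54 and 79.3% ± 7.46 in the mutant (SD, n = 3). Its share was lower with LPS+IL4 by 0.34 ± 0.12 on the log2 scale (limma, adjusted p = 0.0245). The difference was -0.11 with thinned reads (limma, adjusted p = 0.331) and -0.12 with TMM factors (limma, adjusted p = 0.127), and neither passed the test.

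In the flank beyond the CTCF sites the shares of both stimuli lay below those of resting cells. The far flank, 500 kb to 1 Mb from the bait, held 5.16% ± 0.307 of covered ends in WT resting cells, 3.72% ± 0.180 with LPS and 4.03% ± 0.155 with LPS+IL4. In the mutant it held 5.23% ± 0.0227, 3.97% ± 0.224 and 4.16% ± 0.195.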
